A study of Mus musculus with 47 samples.

Results

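Klf1, Tal1, Lyl1, Lmo2, Ldb1 and Gfi1b are 6 transcriptional regulators of blood formation, and their transcript levels were followed across sorted populations of mouse bone marrow. The genes were chosen by name, as Klf1, Tal1 and Gfi1b with the partner factors Lmo2, Ldb1 and Lyl1, with earlier results of these data known. Each was measured by 1 probe set, so 6 of the 45101 probe sets and 6 of the 18194 named genes of the array are described. All 6 passed the filter on dim genes, which left 13949 genes for testing.

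The study profiled 47 Affymetrix arrays of cells purified from the bone marrow of adult C57Bl6 mice, with RNA of 2000 cells amplified for each array. No mutation, transgene or treatment is named, so all populations come from unmodified animals as far as the labels go. The 17 groups are LTHSC and STHSC (2 arrays each), LMPP (5), MkE (4), PreCFUE, CFUE, ProE and MkP (3 each), GM (2), GMP (3), CLP (2), ETP (3), ProB (2), PreB (4), IgM+SP, CD4 and NKmature (2 each). The labels write out none of these abbreviations and list no sorting markers, no age in weeks and no sex. In the usual reading, LTHSC and STHSC are long-term and short-term repopulating stem cells, LMPP a multipotent progenitor primed for lymphoid fate, MkE, PreCFUE, CFUE and ProE successive erythroid stages that start from a shared erythroid and megakaryocytic progenitor, and MkP a megakaryocyte progenitor. GM and GMP are granulocyte and macrophage progenitors, and the others are lymphoid progenitors and lymphocytes. Arrays of a group are called biological replicates with no animal or pool named, so p-values measure only the spread between these arrays, which may be technical.

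Tal1 (also called Scl) and its paralog Lyl1 are basic helix-loop-helix proteins. They bind DNA at E-box sequences as partners of E proteins such as Tcf3 and Tcf12, and Tal1 is needed for the onset of blood formation and for erythroid and megakaryocytic maturation. Lmo2 is a LIM-only bridging protein that binds no DNA itself but joins Tal1 to GATA factors, and Ldb1, a LIM-domain-binding adaptor, holds the complex together and can pair with another copy of itself to join distant enhancers and promoters. Klf1, the erythroid Krüppel-like factor, activates the adult beta-globin gene and much of the red cell programme from CACCC-type sequences. Gfi1b is a zinc-finger transcriptional repressor that acts in erythroid and megakaryocytic development and recruits the histone demethylase Kdm1a (LSD1) and CoREST proteins.

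Markers of the labelled cell types were checked first, as the mean log2 intensity of fixed lists on each array. The lists were higher in the groups set for them than in all other groups. For the erythroid list these were PreCFUE, CFUE and ProE, without MkE, and for the stem cell list LTHSC alone. The erythroid list of 8 measured genes lay at 7.21 to 9.85 on PreCFUE, CFUE and ProE arrays, against at most 6.43 elsewhere (MkE). The megakaryocyte list lay at 8.51 to 8.65 on MkP arrays, against at most 7.03 on others, and the stem cell list at 9.03 to 9.46 on LTHSC arrays, against at most 7.48. On STHSC arrays the stem cell list ran from 6.70 to 7.48 and overlapped LMPP arrays (6.28 to 7.10). The ProB label does not match its markers well: both ProB arrays carried an NK cell list of 7 genes at 9.15 and 9.07, with 7 of 7 genes over the median of all values, and a B cell list at 7.47 and 5.68, against 8.47 to 10.16 for the B cell list on PreB and IgM+SP arrays. PreB replicates 3 and 4 had the NK list at 5.82 and 6.06, against 3.38 and 3.51 on replicates 1 and 2. The CD4 arrays also carried the NK list, at 6.07 to 6.36, with the group means of 6 of 7 genes over the median of all values. The labels give no sex, but 21 arrays had the X-inactivation transcript Xist (over 7) alone, 19 had the Y-linked transcript Eif2s3y (over 5) alone and 7 had both. In 7 comparisons the groups shared no such class (MkE with LTHSC, MkE with LMPP, ProE with CFUE, GM with LMPP, GMP with GM, CD4 with ETP, NKmature with CLP), so there the class of array and the cell type cannot be told apart. Fits with this class as a block take the Xist against Eif2s3y difference from PreB alone, the only group with arrays of each. The difference to arrays with both comes from LMPP and ETP. Since the PreB split coincides with the NK markers, values with the block cannot separate class from cell type.

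The sequences before the transcription starts of 4 members are shown because Klf1 and Gfi1b had the most alike profiles of any pair of members, and because Tal1 and Lyl1 are paralogs whose profiles differed. Each is the RefSeq window of 250 bases before to 50 bases after the start on GRCm38.p6, written 5′ to 3′ on the strand of the gene. Capitals mark matches on either strand to 3 short motifs, which may overlap: GATA with A or T before it and A or G after it, the E-box CAGNTG and a Krüppel-like factor motif CCNCNCCC. Of 32851 mouse promoter windows of the same length, 29.76% held the GATA motif, 51.42% the E-box and 49.47% the Krüppel-like factor motif.
Klf1, chr8:84901732-84902031, plus strand: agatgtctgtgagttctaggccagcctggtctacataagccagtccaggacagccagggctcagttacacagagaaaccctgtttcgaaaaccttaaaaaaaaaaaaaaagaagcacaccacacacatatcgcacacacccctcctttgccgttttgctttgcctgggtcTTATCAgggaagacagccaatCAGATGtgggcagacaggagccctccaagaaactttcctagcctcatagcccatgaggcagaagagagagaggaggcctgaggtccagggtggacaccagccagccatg
Gfi1b, chr2:28621933-28622232, minus strand: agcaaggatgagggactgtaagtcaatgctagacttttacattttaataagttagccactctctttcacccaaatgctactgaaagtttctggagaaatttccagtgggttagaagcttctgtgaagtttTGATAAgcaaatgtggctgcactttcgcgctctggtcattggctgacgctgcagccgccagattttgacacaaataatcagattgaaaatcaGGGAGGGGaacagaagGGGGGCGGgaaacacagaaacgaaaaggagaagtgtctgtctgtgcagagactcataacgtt
Tal1, chr4:115056176-115056475, plus strand, the first of 2 listed starts: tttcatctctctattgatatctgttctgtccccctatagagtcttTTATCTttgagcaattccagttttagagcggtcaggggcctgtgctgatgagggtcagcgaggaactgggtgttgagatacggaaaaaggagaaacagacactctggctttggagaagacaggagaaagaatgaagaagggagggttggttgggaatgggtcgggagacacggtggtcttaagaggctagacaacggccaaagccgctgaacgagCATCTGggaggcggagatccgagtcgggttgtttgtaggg
Lyl1, chr8:84701207-84701506, plus strand: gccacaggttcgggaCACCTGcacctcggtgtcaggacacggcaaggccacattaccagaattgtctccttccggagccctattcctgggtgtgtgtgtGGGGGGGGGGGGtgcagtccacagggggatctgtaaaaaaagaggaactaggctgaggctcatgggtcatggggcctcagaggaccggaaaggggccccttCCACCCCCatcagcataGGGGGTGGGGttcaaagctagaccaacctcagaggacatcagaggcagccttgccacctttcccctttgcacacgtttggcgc

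The Klf1 window held 1 GATA match that begins 80 bases before the start and 1 E-box match that begins 59 bases before it, with no Krüppel-like factor match. The Gfi1b window held 1 GATA match, 120 bases before the start, and 2 Krüppel-like factor matches, with no E-box match. The printed Tal1 window held 1 GATA match 205 bases before the start and 1 E-box match after it, with no Krüppel-like factor match. The window of the other listed Tal1 start held 4 Krüppel-like factor matches and no GATA or E-box match, so the Tal1 matches depend on the start. The Lyl1 window held no GATA match, 1 E-box match and 8 Krüppel-like factor matches, of which 5 overlap within a run of G. A match describes these letters and shows no binding. The table held 3 windows for Ldb1 and a second one for Tal1, which are not printed, and Lmo2 is named only.

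Levels are log2 of the deposited intensity, and each is compared only with other arrays of the same probe set. All 6 members differed among the 17 groups by limma's moderated F-test, as did 90.3% of the 13949 genes tested. By the size of F, Tal1 ranked 30 (F = 195, adjusted p = 7.9e-28), Lmo2 189, Gfi1b 211, Klf1 247, Lyl1 1069 and Ldb1 4998 (F = 11.8, adjusted p = 1.7e-09). The means of the 17 groups spanned 8.33 for Lmo2, 8.03 for Klf1, 6.30 for Tal1, 6.16 for Gfi1b, 5.60 for Lyl1 and 4.61 for Ldb1 on the log2 scale.

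**Figure D1:**
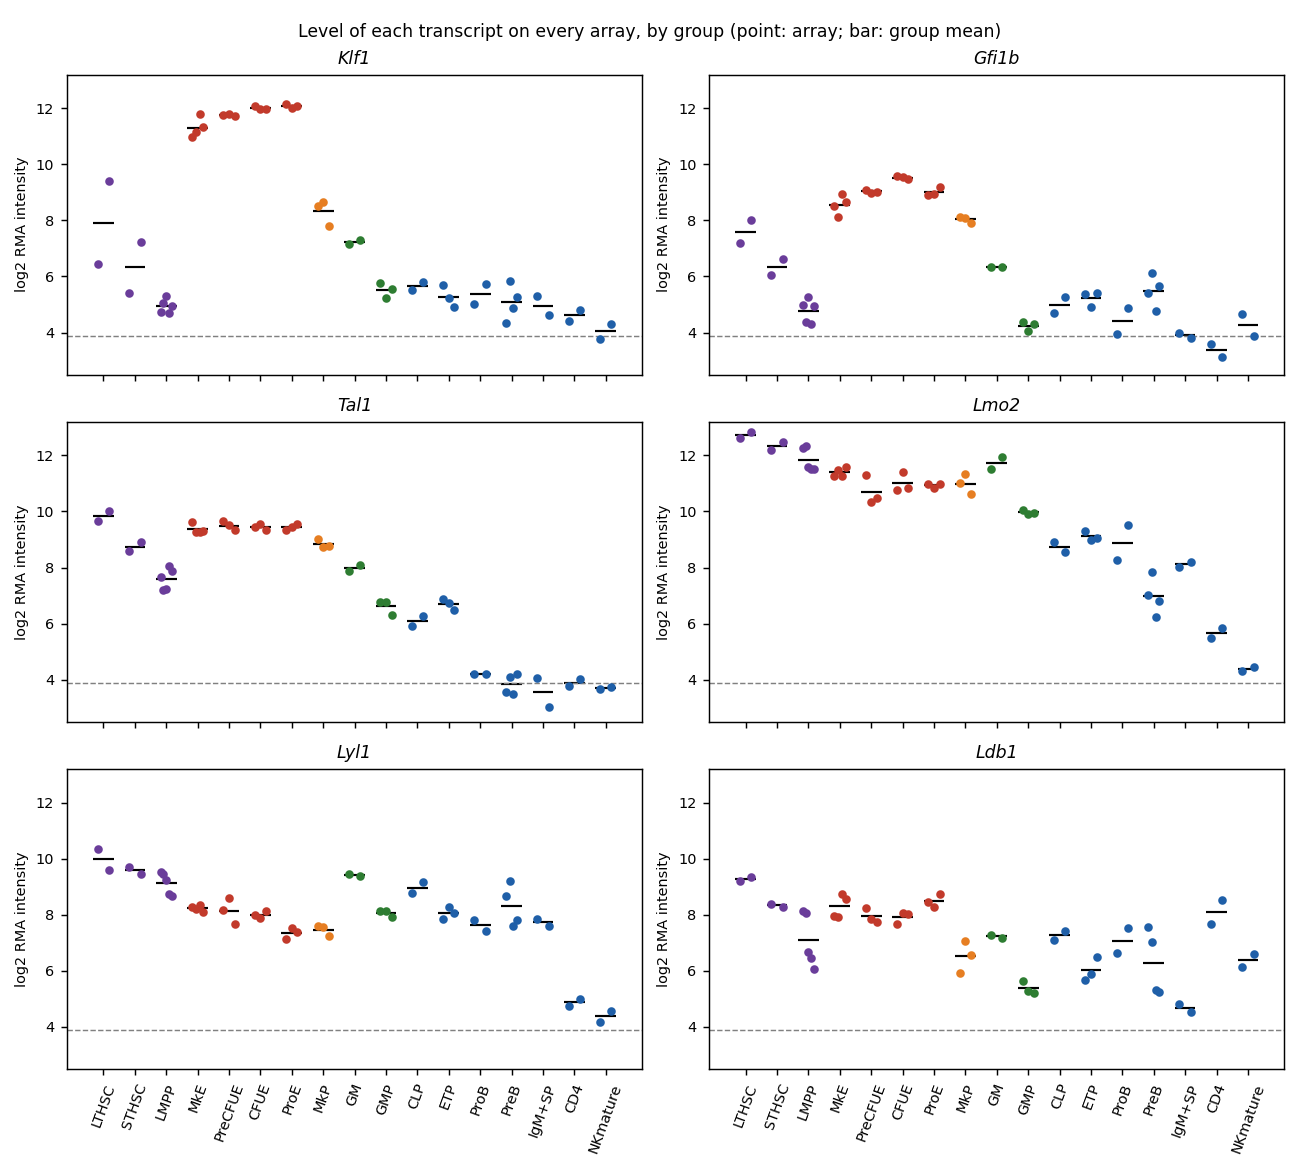
Level of each of the 6 transcripts as log2 intensity (vertical axis) on every array (points) with the group mean (bars) in the 17 groups (horizontal axis); purple marks LTHSC, STHSC and LMPP, red MkE to ProE, orange MkP, green GM and GMP, and blue the lymphoid groups, and the dashed line is the median of all values (3.89). Klf1 and Gfi1b are highest in the red groups, Tal1 is as high in LTHSC as there, Lmo2 is highest in the purple groups, and Lyl1 in LTHSC and STHSC.

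Tal1 was high in LTHSC and in all erythroid and megakaryocytic groups, at mid levels in LMPP and granulocyte-macrophage progenitors and at the lower end of the scale in B, T and NK cells. It stood at 9.66 and 10.03 on LTHSC arrays, 9.65, 9.52 and 9.33 on PreCFUE, 9.35, 9.46 and 9.56 on ProE, 9.46, 9.57 and 9.34 on CFUE and 9.63, 9.27, 9.27 and 9.32 on MkE arrays. LTHSC was the highest and narrowly missed overlapping PreCFUE, while PreCFUE, ProE, CFUE and MkE overlapped. Next came MkP (9.01, 8.74, 8.75) and STHSC (8.58, 8.91), then GM (7.89, 8.08), LMPP (7.67, 7.20, 7.24, 8.06, 7.87), ETP (6.90, 6.75, 6.50), GMP (6.78, 6.78, 6.32) and CLP (5.90, 6.26). ProB (4.22, 4.20), CD4 (3.77, 4.02), PreB (3.58, 4.09, 3.51, 4.19), NKmature (3.67, 3.74) and IgM+SP (4.08, 3.02) lay near the median of all values on the array. ProB did not overlap the group below it, CD4, and each of the last 4 groups overlapped the next.

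Lyl1, the paralog of Tal1, kept a high level much further into the lymphoid groups. It stood at 10.36 and 9.59 on LTHSC arrays, 9.70 and 9.46 on STHSC, 9.47 and 9.38 on GM, 9.52, 9.47, 9.22, 8.74 and 8.67 on LMPP and 8.78 and 9.16 on CLP arrays. PreB (8.66, 9.21, 7.61, 7.82), MkE (8.28, 8.22, 8.36, 8.11), PreCFUE (8.18, 8.59, 7.68), ETP (7.86, 8.28, 8.08), GMP (8.14, 8.14, 7.92) and CFUE (7.99, 7.89, 8.13) followed, each overlapping the next. IgM+SP (7.86, 7.60), ProB (7.82, 7.44), MkP (7.61, 7.55, 7.24) and ProE (7.15, 7.51, 7.37) were lower. The mature lymphocytes CD4 (4.76, 4.98) and NKmature (4.20, 4.55) stood far below the other 15 groups and did not overlap each other. Among the erythroid stages ProE was the lowest for Lyl1, whereas ProE and CFUE overlapped for Tal1.

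Lmo2 was highest in stem and multipotent cells and lowest in T and NK cells. It stood at 12.61 and 12.83 on LTHSC arrays, 12.21 and 12.48 on STHSC, 12.26, 12.34, 11.58, 11.51 and 11.50 on LMPP and 11.52 and 11.95 on GM arrays. The erythroid and megakaryocytic groups lay within a narrow band: MkE (11.28, 11.49, 11.26, 11.60), CFUE (10.77, 11.41, 10.84), MkP (11.03, 11.34, 10.62), ProE (10.99, 10.82, 10.99) and PreCFUE (11.30, 10.32, 10.48) overlapped from one to the next. GMP (10.05, 9.90, 9.96), ETP (9.29, 8.99, 9.07), ProB (8.27, 9.51), CLP (8.91, 8.57) and IgM+SP (8.03, 8.21) came next. PreB (7.02, 7.84, 6.23, 6.82), CD4 (5.48, 5.83) and NKmature (4.33, 4.45) were the last, with no overlap between them.

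Ldb1 spanned the least and varied most within groups. It stood at 9.20 and 9.36 on LTHSC arrays, above all other groups, followed by ProE (8.44, 8.29, 8.75), STHSC (8.38, 8.29), MkE (7.97, 7.92, 8.74, 8.58), CD4 (7.68, 8.53), PreCFUE (8.24, 7.83, 7.75) and CFUE (7.66, 8.06, 8.03). CLP (7.10, 7.43), GM (7.29, 7.16), LMPP (8.14, 8.07, 6.69, 6.47, 6.05), ProB (6.65, 7.52), MkP (5.93, 7.05, 6.56), NKmature (6.14, 6.62), PreB (7.57, 7.04, 5.31, 5.26) and ETP (5.67, 5.87, 6.51) overlapped from one to the next. GMP (5.65, 5.28, 5.21) and IgM+SP (4.83, 4.52) were lowest. CD4 thus ranked among the higher groups for Ldb1, while it was the lowest group for Gfi1b and the one before the lowest for Klf1, Lyl1 and Lmo2.

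Klf1 was highest in the erythroid stages. It stood at 12.15, 12.01 and 12.09 on ProE arrays, 12.06, 11.98 and 11.98 on CFUE, 11.77, 11.78 and 11.71 on PreCFUE and 10.97, 11.15, 11.78 and 11.32 on MkE arrays. ProE and CFUE overlapped, as did PreCFUE and MkE. Below a clear gap lay MkP (8.51, 8.65, 7.81), LTHSC (6.43, 9.39), GM (7.15, 7.32) and STHSC (5.41, 7.23). The stem cell arrays disagreed: LTHSC replicate 2 and STHSC replicate 2 stood far above replicate 1 of the same group. CLP (5.52, 5.79), GMP (5.78, 5.24, 5.55), ProB (5.01, 5.74), ETP (5.68, 5.22, 4.92), PreB (4.34, 5.84, 4.87, 5.26), IgM+SP (5.32, 4.61), LMPP (4.72, 5.05, 5.31, 4.68, 4.94) and CD4 (4.42, 4.81) overlapped from one to the next, above NKmature (3.78, 4.31).

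Gfi1b was likewise highest in the erythroid stages, with MkP next in order. It stood at 9.57, 9.55 and 9.46 on CFUE arrays, 9.10, 8.99 and 9.01 on PreCFUE, 8.90, 8.96 and 9.19 on ProE and 8.51, 8.12, 8.95 and 8.66 on MkE arrays. MkP (8.11, 8.10, 7.90) and LTHSC (7.19, 8.01) came next and overlapped, followed by STHSC (6.05, 6.63) and GM (6.32, 6.34). PreB (5.40, 6.11, 4.78, 5.67), ETP (5.38, 4.90, 5.40), CLP (4.72, 5.29), LMPP (4.98, 4.37, 5.26, 4.30, 4.95), ProB (3.96, 4.88), NKmature (4.65, 3.87) and GMP (4.39, 4.06, 4.31) overlapped from one to the next. IgM+SP (4.00, 3.80) and CD4 (3.61, 3.13) were the lowest.

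The wide spread of Klf1 in the stem cell groups moved with erythroid markers. The erythroid list averaged 6.13 on LTHSC replicate 2, where the carbonic anhydrase Car1 reached 11.9, and 5.11 on replicate 1, where Car1 was 8.91. It averaged 4.50 on STHSC replicate 2 and 3.99 on replicate 1. Lymphoid arrays also carried it: PreB replicate 2, which had the highest Klf1 and Gfi1b of the PreB arrays, had the list at 5.82 with the haem synthesis enzyme Alas2 at 10.3, against 4.01 to 4.26 for the list on the other PreB arrays. ProB replicate 2 had it at 5.58, against 4.01 on replicate 1, and was also higher in Klf1, Gfi1b and Lmo2. The 2 CD4 arrays had the list at 4.57 and 5.39, with Alas2 averaging 8.42, while CD4 was the one before the lowest group for Klf1. In bulk samples fewer cells of a type and less RNA per cell cannot be told apart, and the part of the erythroid markers in these levels was not tested.

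The 5 erythroid and megakaryocytic groups (MkE, PreCFUE, CFUE, ProE, MkP; 16 arrays) were compared with the 7 lymphoid groups (17 arrays) as differences of the mean of group means. Calls required an adjusted p under 0.05 (Benjamini-Hochberg, over all genes tested) and a change of at least 2-fold in limma's test. All 5 called members (of 6) were higher in the erythro-megakaryocytic groups, in a comparison where 18.9% of all genes were called, 9.39% in this direction. The members' median difference was 3.95, against 0.05 over all genes. Klf1 ran from 7.81 to 12.15 (median 11.77) on erythro-megakaryocytic arrays, against 3.78 to 5.84 (median 5.01) on lymphoid arrays, a difference of 6.09 ± 0.19 (SE; 68.2-fold, adjusted p = 1.4e-26). Tal1 ran from 8.74 to 9.65, against 3.02 to 6.90, a difference of 4.75 ± 0.10 (adjusted p = 6.9e-32). These ranges did not overlap for either gene, and the share of all genes without overlap was not counted here.

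Gfi1b ran from 7.90 to 9.57 on erythro-megakaryocytic arrays, against 3.13 to 6.11 on lymphoid arrays (difference 4.31 ± 0.12, adjusted p = 1.6e-27). Lmo2 ran from 10.32 to 11.60, against 4.33 to 9.51 (3.60 ± 0.13, adjusted p = 2.6e-24), again with no overlap. Ldb1 and Lyl1 did overlap between these classes. Ldb1 ran from 5.93 to 8.75 on erythro-megakaryocytic arrays, against 4.52 to 8.53 on lymphoid arrays, a difference of 1.29 ± 0.20 (adjusted p = 5.5e-07). With the class of array by Xist and Eif2s3y as a block it was 0.18 (adjusted p = 0.57), an adjustment drawn from the splits within PreB, LMPP and ETP. Lyl1 ran from 7.15 to 8.59, against 4.20 to 9.21, and its difference of 0.70 ± 0.12 (adjusted p = 3.5e-06) stayed under 2-fold. Without ProB and PreB, a setting chosen after the data were seen, it was 1.04 and was called, and with the block it was 0.09 (adjusted p = 0.66).

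The stem cell groups (LTHSC, STHSC; 4 arrays) differed from the erythro-megakaryocytic groups in both directions, with 2 members higher and 2 lower where 20.3% of all genes were called, 10.1% in each direction. These comparisons share the erythro-megakaryocytic arrays. All stem cell and ProE arrays carried Eif2s3y alone, and all MkE, PreCFUE, CFUE and MkP arrays Xist alone. Class of array and cell type thus largely coincide here. Lyl1 was higher in stem cells, at 9.46 to 10.36 against 7.15 to 8.59 on erythro-megakaryocytic arrays (1.94 ± 0.19, adjusted p = 5.7e-11, or 2.91 with the class of array as a block), and so was Lmo2, at 12.21 to 12.83 against 10.32 to 11.60 (1.52 ± 0.20, adjusted p = 6.2e-08). Neither range overlapped, and the share of all genes without overlap was not counted for this comparison. Klf1 was lower in stem cells, at 5.41 to 9.39 against 7.81 to 12.15 (-3.98 ± 0.29, adjusted p = 3.9e-14). Gfi1b was also lower, at 6.05 to 8.01 against 7.90 to 9.57 (-1.86 ± 0.19, adjusted p = 2.3e-10). Tal1 differed by -0.03 with a 95% interval of -0.34 to 0.28, and Ldb1 by 0.98 (adjusted p = 0.0092), just under 2-fold, or 2.59 and called with the block. With the block Lmo2 was at 2.25, Klf1 at -3.96, Gfi1b at -1.44 and Tal1 at -0.04.

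**Figure D2:**
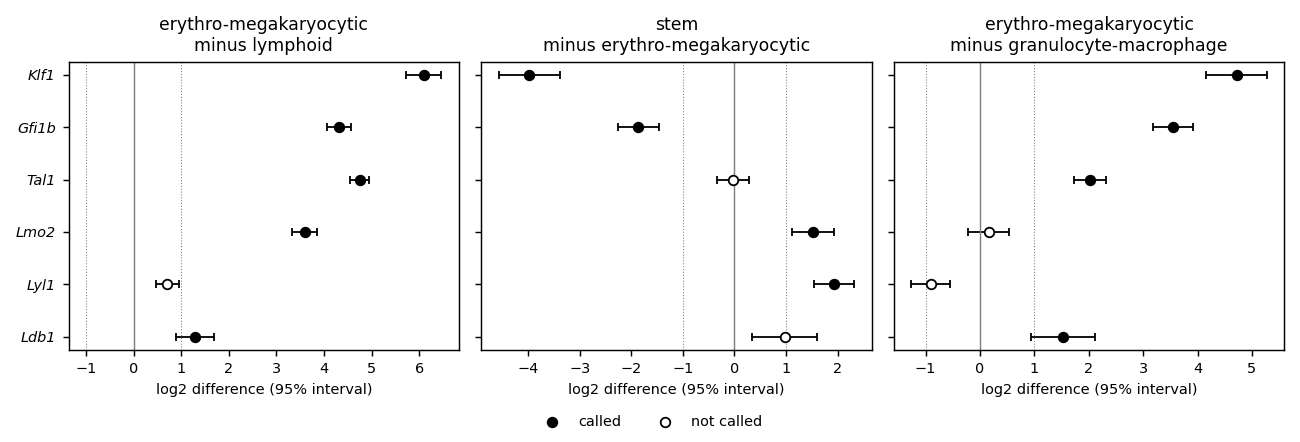
Difference of class means in log2 units (horizontal axis) for the 6 members in the comparisons of erythro-megakaryocytic minus lymphoid groups, stem minus erythro-megakaryocytic groups, and erythro-megakaryocytic minus granulocyte-macrophage groups; circles are estimates, bars 95% intervals, filled circles called members, and dotted lines 2-fold. Klf1 has the largest absolute difference in each panel, at 6.09, -3.98 and 4.72.

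Against the granulocyte-macrophage groups (GM, GMP; 5 arrays), 4 members were higher in the erythro-megakaryocytic groups, where 11.7% of all genes were called and 3.1% in this direction. Klf1 had a median of 11.77 on erythro-megakaryocytic arrays, against 5.78 on GM and GMP arrays (4.72 ± 0.27, adjusted p = 2.4e-17). The median of Gfi1b was 8.96, against 4.39 (3.54 ± 0.18, adjusted p = 5.2e-19), and that of Tal1 9.34, against 6.78 (2.02 ± 0.14, adjusted p = 8.7e-15). The ranges of these 3 members did not overlap, as was so for 0.975% of all genes in this direction. Ldb1 was higher by 1.53 ± 0.29 with overlap (adjusted p = 5e-05), and by 0.92, under 2-fold, with the class of array as a block. Lmo2 differed by 0.16 (95% interval -0.23 to 0.54, adjusted p = 0.55), and Lyl1 by -0.90 (adjusted p = 7.2e-05), under 2-fold, or -1.27 and called with the block.

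Within the stem and multipotent cells, 3 members fell in STHSC against LTHSC, where 6.81% of all genes were called, 4.75% as lower. The differences were -1.10 ± 0.27 for Tal1 (adjusted p = 0.0068), -1.26 ± 0.35 for Gfi1b (adjusted p = 0.015) and -1.59 ± 0.52 for Klf1 (adjusted p = 0.047). Tal1 and Gfi1b did not overlap between these groups, and Klf1 did. Lmo2 and Ldb1, not called, did not overlap either, and the share of all genes without overlap was not counted. The 3 calls rest on single arrays: without LTHSC replicate 2 the differences were -0.92, -0.85 and -0.11, and without STHSC replicate 1 they were -0.93, -0.98 and -0.68, and none passed. For Klf1 the difference was -3.07 without LTHSC replicate 1 and -2.50 without STHSC replicate 2. Fitted on these 4 arrays alone, none of the 3 passed (adjusted p = 0.49 for Klf1, 0.17 for Tal1 and 0.21 for Gfi1b). Klf1 also missed the threshold with no filter, a floor of 16, probe set means or a further quantile normalization (adjusted p = 0.055 to 0.061), and Tal1 was under 2-fold with the last of these (-0.87).

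In LMPP, 4 members were lower than in LTHSC, where 12.5% of all genes were called, 7.66% as lower. Klf1 differed by -2.97 ± 0.44 (adjusted p = 1.9e-06), or by -1.49 without LTHSC replicate 2. Gfi1b differed by -2.83 ± 0.29 (adjusted p = 8.8e-10), Tal1 by -2.24 ± 0.23 (adjusted p = 9.1e-10) and Ldb1 by -2.20 ± 0.47 (adjusted p = 0.00052). With the LMPP and LTHSC arrays that carry Eif2s3y and no Xist, the Ldb1 difference was -1.17 (adjusted p = 0.0087). Lmo2 (-0.88) and Lyl1 (-0.85) stayed under 2-fold, and none of the 6 members overlapped between LMPP and LTHSC. Of all genes, 18.7% were lower in LMPP without overlap.

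MkE set against LMPP gave the largest of the 120 member differences, that of Klf1. Klf1 was higher by 6.37 ± 0.35 (82.4-fold, adjusted p = 1.7e-17) and Gfi1b by 3.79 ± 0.23 (adjusted p = 3.6e-16), in a comparison with 12.6% of genes called, 6.64% as higher. Tal1 was higher by 1.76 ± 0.18 (adjusted p = 6.3e-10), and none of these 3 overlapped, as was so for 14.2% of all genes in this direction. Ldb1, with overlap, was higher by 1.22 ± 0.38 (adjusted p = 0.011), but the difference was -1.35 with the class of array as a block and missed the call without LMPP replicate 5 or MkE replicate 3 (0.96 and 1.07). Lyl1 differed by -0.88 and Lmo2 by -0.43, or by -2.27 and -1.69, both called, with the block. MkE against LTHSC gave 1 member higher and 2 lower among 19.3% of genes called, 8.98% as higher and 10.3% as lower. Klf1 was higher by 3.39 ± 0.45 (adjusted p = 2.2e-07), or 1.91 without LTHSC replicate 1, while Lyl1 differed by -1.73 ± 0.29 (adjusted p = 1.4e-05) and Lmo2 by -1.31 ± 0.32 (adjusted p = 0.0013). With the class of array as a block these were -2.96 for Lyl1 and -2.22 for Lmo2, and Ldb1 was called at -3.00. Tal1 differed by -0.47 between these groups (95% interval -0.95 to 0.01).

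Along the erythroid stages no member passed the test. From MkE to PreCFUE, PreCFUE to CFUE and CFUE to ProE none of the 6 was called in any step, where 7.31%, 2.65% and 4.62% of all genes were called. An unadjusted p under 0.05 in limma's test was reached by Lmo2 in PreCFUE minus MkE (-0.71 ± 0.28, adjusted p = 0.084). Lyl1 reached it in ProE minus CFUE (-0.66 ± 0.28, adjusted p = 0.14). The share of all genes under that unadjusted p was not counted. Klf1 differed by 0.45 (PreCFUE minus MkE), 0.25 (CFUE minus PreCFUE) and 0.07 (ProE minus CFUE), with 95% intervals of -0.36 to 1.26, -0.61 to 1.12 and -0.80 to 0.94. These intervals use a spread shared by all 17 groups. The SD of Klf1 was 2.09 in LTHSC and 1.28 in STHSC, against 0.34, 0.04, 0.05 and 0.07 in MkE, PreCFUE, CFUE and ProE. CFUE arrays stood above PreCFUE arrays for Klf1 without overlap, though under 2-fold. Tal1 differed by 0.13, -0.04 and 0.00 in the same steps, and the widest of its intervals ran from -0.50 to 0.41. Gfi1b differed by 0.47, 0.49 and -0.51, under 2-fold but without overlap in any of the steps, with ProE arrays below CFUE arrays. Lyl1 and Ldb1 did not overlap in ProE minus CFUE either. Thus 1, 2 and 3 members did not overlap in the successive steps, and the share of all genes without overlap was not counted. Without PreCFUE replicate 1, Lmo2 passed in PreCFUE minus MkE (-1.01), and with the class of array as a block Ldb1 passed in ProE minus CFUE (2.60, against 0.58 without the block).

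**Figure D3:**
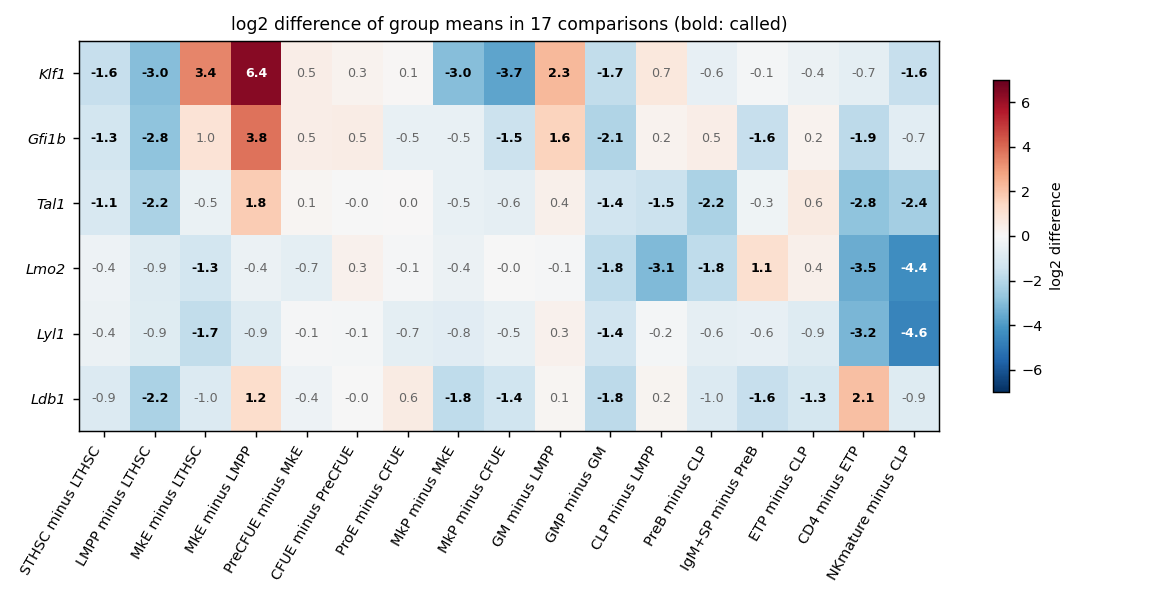
Difference of group means in log2 units for the 6 members (rows) in 17 comparisons between pairs of groups (columns), coloured from blue (lower in the first group named) to red (higher) and printed in bold where called. The 3 erythroid steps hold no called member, and the column of GMP minus GM holds 6.

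MkP, the megakaryocyte progenitor, was set against both MkE and CFUE. Against CFUE, 3 members were lower in MkP among 25.7% of genes called, 17.8% as lower: Klf1 by -3.69 ± 0.43 (adjusted p = 6.1e-09), Gfi1b by -1.49 ± 0.28 (adjusted p = 4.3e-05) and Ldb1 by -1.40 ± 0.46 (adjusted p = 0.011). None of the 3 overlapped, as was so for 34.3% of all genes in this direction, and with a further quantile normalization Gfi1b (-0.94) and Ldb1 (-0.92) fell under 2-fold, and Ldb1 missed the call without MkP replicate 1 (-1.11). Lmo2 differed by -0.01 (95% interval -0.61 to 0.59). Against MkE, Klf1 was lower in MkP by -2.98 ± 0.40 (adjusted p = 4.1e-07) and Ldb1 by -1.79 ± 0.43 (adjusted p = 0.0016), where 11.5% of genes were called, 8.55% as lower. Tal1, at -0.54 (adjusted p = 0.045), and Gfi1b, at -0.52 (adjusted p = 0.13), stayed under 2-fold.

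In the granulocyte-macrophage branch all 6 members were lower in GMP than in GM, without overlap for any, in a comparison with 7.95% of genes called, 5% as lower. Of all genes, 31.8% were lower in GMP without overlap. Gfi1b differed by -2.08 ± 0.32 (adjusted p = 8e-06), Ldb1 by -1.85 ± 0.51 (0.013), Lmo2 by -1.77 ± 0.33 (0.00021), Klf1 by -1.71 ± 0.48 (0.014), Lyl1 by -1.36 ± 0.31 (0.002) and Tal1 by -1.35 ± 0.25 (0.00016), with adjusted p in brackets. Every GM array carried Xist and every GMP array Eif2s3y, and with that class as a block 2 of the 6 passed (Gfi1b and Tal1), with Ldb1 at 0.17, Lyl1 at -0.14 and Lmo2 at -0.86. For these groups the block term is the difference between the Xist and Eif2s3y arrays of PreB. Klf1 missed the threshold without GM replicate 1 or 2 or GMP replicate 2, and Ldb1 without GM replicate 1 or 2 (adjusted p = 0.058 to 0.14). GM against LMPP had 2 members higher, Klf1 by 2.29 ± 0.44 (adjusted p = 0.00075) and Gfi1b by 1.56 ± 0.29 (adjusted p = 0.00053), where 4.31% of genes were called, 3.49% as higher. With the class of array as a block Gfi1b missed the threshold (1.04, adjusted p = 0.092), and Ldb1 (-2.42), Lmo2 (-1.36) and Lyl1 (-1.09) were called as lower. The GM arrays carried the erythroid list at 4.56 and 4.71, against 3.74 to 3.90 on LMPP arrays, and its part in the Klf1 and Gfi1b levels was not tested.

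At the entry to the lymphoid branch, CLP had less Lmo2 and Tal1 than LMPP, with 21.2% of all genes called, 18.1% as lower. Lmo2 stood at 8.91 and 8.57 in CLP, against 11.50 to 12.34 in LMPP (-3.10 ± 0.30, adjusted p = 5.5e-10). Tal1 stood at 5.90 and 6.26, against 7.20 to 8.06 (-1.53 ± 0.23, adjusted p = 1.7e-06). Neither overlapped (the share over all genes was not counted), while Lyl1 differed by -0.15 (95% interval -0.73 to 0.42). Going on to PreB, Tal1 was lower by -2.24 ± 0.24 (adjusted p = 5.9e-10) and Lmo2 by -1.76 ± 0.32 (adjusted p = 1.3e-05) than in CLP, among 35.5% of genes called, 10.5% as lower. In the step from PreB to IgM+SP (12.8% called, 3.4% as higher and 9.43% as lower) Lmo2 was higher in IgM+SP by 1.14 ± 0.32 (adjusted p = 0.0079), and Gfi1b and Ldb1 were lower by -1.59 ± 0.30 (adjusted p = 0.00015) and -1.62 ± 0.48 (adjusted p = 0.014). Without the PreB arrays that carry NK markers Lmo2 differed by 0.69 and was not called, and Ldb1 by -2.63. With the class of array as a block, or on arrays of the shared class alone, Ldb1 differed by -0.61 and was not called (adjusted p = 0.43 and 0.28), and its call also ended without IgM+SP replicate 1 or 2 or PreB replicate 1 or 2 (adjusted p = 0.057 to 0.13). That of Lmo2 ended without IgM+SP replicate 2 or PreB replicate 3. Fitted on these 2 groups alone, none of the 3 passed (adjusted p = 0.082 to 0.26).

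In the T and NK branches, ETP differed from CLP by 1 called member (Ldb1, -1.25 ± 0.51, adjusted p = 0.04; 29.2% of genes called, 7.16% as lower), and this call ended without CLP replicate 1 or 2 or without ETP replicate 1 or 2, and with the class of array as a block (-0.65). CD4 cells had 4 members lower and 1 higher than ETP, with 26.5% of genes called, 13.9% as higher and 12.5% as lower. The lower ones were Lmo2 (-3.46 ± 0.33, adjusted p = 6.3e-11), Lyl1 (-3.20 ± 0.31, adjusted p = 7.5e-11), Tal1 (-2.82 ± 0.25, adjusted p = 8.4e-12) and Gfi1b (-1.86 ± 0.32, adjusted p = 8.9e-06, or -1.23 with intensities under 16 raised to 16). Ldb1 was higher in CD4, at 7.68 and 8.53, against 5.67, 5.87 and 6.51 in ETP (2.09 ± 0.51, adjusted p = 0.0011), but -0.54 with the class of array as a block, and it missed the threshold without CD4 replicate 2 (1.66). NKmature had 4 members lower than CLP: Lyl1 (-4.59 ± 0.34, adjusted p = 8.6e-14), Lmo2 (-4.35 ± 0.36, adjusted p = 2.2e-12), Tal1 (-2.37 ± 0.27, adjusted p = 4.6e-09) and Klf1 (-1.61 ± 0.52, adjusted p = 0.0086), among 41.3% of genes called, 12.1% as lower. Klf1 missed the threshold there without CLP replicate 2 or NKmature replicate 1 (adjusted p = 0.057 and 0.082) and with the class of array as a block (-1.45, adjusted p = 0.057).

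Ldb1, Lyl1 and Lmo2 did not overlap between the array classes inside LMPP and PreB. The share of all genes that separate in this way was not counted, so the splits are not shown to be particular to these members. The LMPP arrays with both Xist and Eif2s3y (replicates 3 to 5) had Ldb1 at 6.05 to 6.69, against 8.07 to 8.14 on replicates 1 and 2 with Eif2s3y alone. Lmo2 stood at 11.50 to 11.58 against 12.26 to 12.34, and Lyl1 at 8.67 to 9.22 against 9.47 to 9.52, with no overlap. In PreB, the Xist arrays (replicates 1 and 2) had Ldb1 at 7.04 to 7.57, against 5.26 to 5.31 on the Eif2s3y arrays (replicates 3 and 4), and Lyl1 at 8.66 to 9.21 against 7.61 to 7.82. Klf1, Tal1 and Gfi1b overlapped between the classes in both groups. ETP, the other mixed group, had 1 array with Eif2s3y alone (replicate 1) and 2 with both. There Klf1 (5.68, against 4.92 and 5.22), Tal1 (6.90, against 6.50 and 6.75) and Lmo2 (9.29, against 8.99 and 9.07) were higher on the Eif2s3y array, and Ldb1 (5.67, against 5.87 and 6.51) and Lyl1 (7.86, against 8.08 and 8.28) lower, the other way round from LMPP. The PreB split coincides with the NK markers on replicates 3 and 4, and none of these splits was tested.

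**Figure D4:**
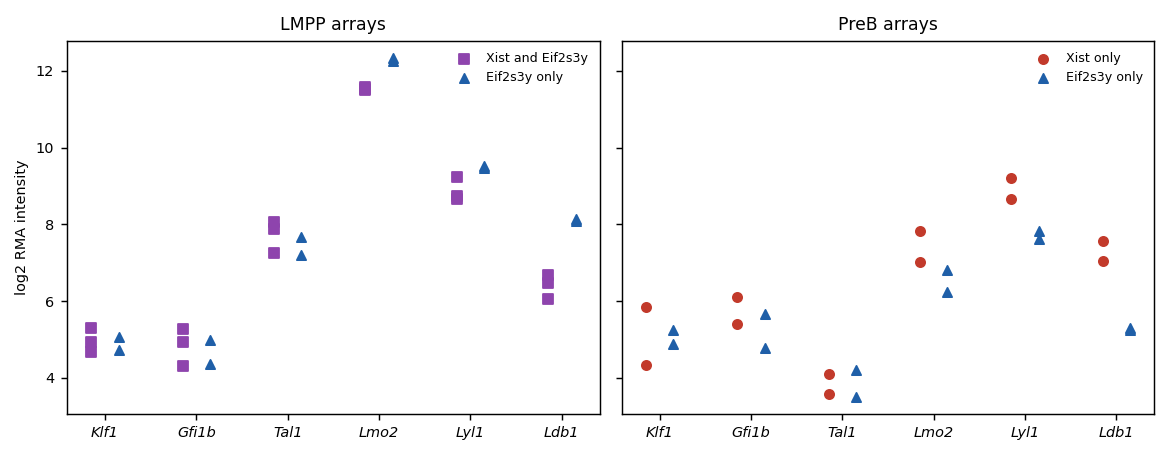
log2 intensity (vertical axis) of the 6 members on the LMPP arrays, split by those with both Xist and Eif2s3y (squares) and Eif2s3y alone (triangles), and on the PreB arrays, split by Xist alone (circles) and Eif2s3y alone (triangles). Ldb1, Lyl1 and Lmo2 separate in both panels, while Klf1, Gfi1b and Tal1 overlap. The share of all genes that separate was not counted.

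Known partners, paralogs, corepressors and targets of the members were counted from fixed lists. Of 13 partners of the Tal1 complex, all tested, 4 were higher and 2 lower in the erythro-megakaryocytic than in the lymphoid groups, where 9.39% of all genes were higher and 9.53% lower, with a median difference of 0.64 against 0.05 over all genes. The higher ones were the GATA factors Gata1 (5.38 ± 0.12) and Gata2 (2.58 ± 0.10), the GATA cofactor Zfpm1 (2.41 ± 0.14) and the Ldb1-binding protein Ssbp3 (1.05 ± 0.11, or 0.91 with the mean of its probe sets), and the lower ones the ETS factor Fli1 (-2.55 ± 0.14) and the Runx partner Cbfb (-1.72 ± 0.09). Of 9 paralogs, 6 were tested and 4 were lower: Klf2 (-5.01 ± 0.34), Gfi1 (-4.25 ± 0.16), Klf4 (-4.04 ± 0.32) and Lmo4 (-1.55 ± 0.11, or -0.94 without ProB and PreB). Gfi1, the paralog of Gfi1b that acts in granulocytes and lymphocytes, averaged 9.22 in GMP, 9.57 in IgM+SP and 2.88 in CFUE, groups in which Gfi1b averaged 4.25, 3.90 and 9.53. Of 22 Klf1 targets, 16 were tested and 8 were higher, led by the water channel Aqp1 (5.96 ± 0.16), the erythroid membrane proteins Ermap (5.49 ± 0.22) and Kel (4.18 ± 0.12), the adhesion molecule Icam4 (3.73 ± 0.11), the haem synthesis enzyme Alad (3.44 ± 0.18) and the erythropoietin receptor Epor (3.14 ± 0.12). Of 7 corepressor genes of Gfi1b, 2 CoREST genes were higher (Rcor1, 1.03, and Rcor3, 1.00) and Phf21a was lower (-1.36). Both higher values lie at the 2-fold line and were under it with probe set means (0.86 and 0.53), Rcor1 also without CLP replicate 2 or ProB replicate 1 and Rcor3 without any of several single arrays.

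In the step MkE minus LMPP, where 6.64% of all genes were higher and 5.99% lower, 4 partners were higher and 1 lower, with Gata1 at 5.66 ± 0.22, Zfpm1 at 3.37 ± 0.26, Gata2 at 3.06 ± 0.20 and Cbfa2t3, an ETO-family corepressor of the complex, at 1.39 ± 0.22 (0.45 with the class of array as a block, not called), and the ETS factor Erg at -1.61 ± 0.29. Zfpm1 was at 1.99 with that block. Of the Klf1 targets, 7 of 16 were higher in MkE, including Aqp1 (7.01 ± 0.29) and Ermap (5.79 ± 0.42), while Alad (2.87 ± 0.34) was at 0.13 with the class of array as a block.

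Along the erythroid stages, where no member was called, partners of the complex did change. In PreCFUE against MkE, 5 of 13 partners were lower, as were 4.44% of all genes: Erg (-3.81 ± 0.33), Fli1 (-2.76 ± 0.31), Gata2 (-2.17 ± 0.22), Cbfb (-1.45 ± 0.20) and Runx1 (-1.37 ± 0.25). With the mean of all probe sets Erg was at -2.18 and Runx1 at -0.77, under 2-fold. CFUE against PreCFUE had 4 lower, with 1.58% of all genes: Cbfb (-1.85 ± 0.22), Fli1 (-1.70 ± 0.33, or -0.62 and not called with intensities under 16 raised to 16), Gata2 (-1.48 ± 0.24) and Cbfa2t3 (-1.09 ± 0.27). The call of Cbfa2t3 ended without CFUE replicate 2 or without PreCFUE replicate 2 or 3. In ProE against CFUE, 5 of 16 Klf1 targets were higher, as were 1.78% of all genes, among them the anion exchanger Slc4a1 (8.69 ± 0.63, or 5.13 with the mean of its probe sets), the haem synthesis enzyme Alas2 (5.19 ± 0.82, or 9.58 with the class of array as a block) and the cell cycle factor E2f2 (2.47 ± 0.42, or 5.22 with the block), while Klf1 itself differed by 0.07. Both block values add the difference between the Xist and Eif2s3y arrays of PreB. On those Xist arrays, replicates 1 and 2, Alas2 stood at 6.95 and 10.3.

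In MkP against CFUE most called partners were higher and all called Klf1 targets lower. Of the partners, 6 were higher and 1 lower, with 7.83% of all genes higher and 17.8% lower: Fli1 (6.58 ± 0.33), Erg (4.19 ± 0.35), Gata2 (3.42 ± 0.24), Runx1 (3.18 ± 0.27), Cbfb (2.78 ± 0.22) and Cbfa2t3 (1.21 ± 0.27) were higher, and the E protein Tcf3 lower (-1.15 ± 0.37, and -0.57 and not called with a further quantile normalization). With the mean of all probe sets Erg was at 2.68 and Runx1 at 1.48. All 8 called Klf1 targets were lower in MkP, with Ermap at -5.95 ± 0.52, Kel at -5.07 ± 0.27, Aqp1 at -4.28 ± 0.36, the transferrin receptor Tfrc at -3.61 ± 0.28 (-1.90 with the mean of its probe sets), Klf3 at -2.95 ± 0.51 (-1.23 with the mean) and Alad at -2.66 ± 0.42. The median over the 16 targets was -1.53, against -0.02 over all genes, and that over the 13 partners 0.65.

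Across the means of the 17 groups, Klf1 and Gfi1b had the highest Pearson correlation of the 15 pairs of members (0.95), followed by Tal1 with Lmo2 (0.87), Tal1 with Gfi1b (0.86) and Lmo2 with Lyl1 (0.81). Klf1 and Lyl1 had the lowest (0.21). These are descriptions over 17 points that share arrays and normalization. Within groups, deviations of the 47 arrays from their group means correlated at 0.63 for Lmo2 with Ldb1, 0.62 for Lyl1 with Ldb1 and 0.55 for Klf1 with Gfi1b.

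**Figure D5:**
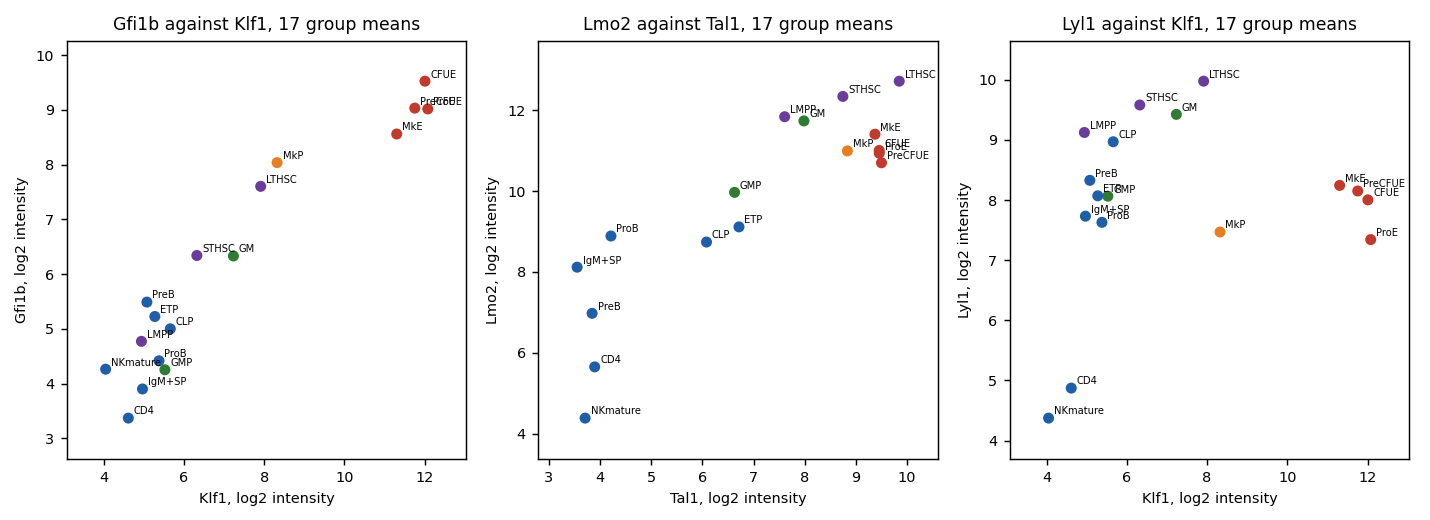
Mean log2 intensity of the 17 groups for Gfi1b against Klf1, Lmo2 against Tal1 and Lyl1 against Klf1, coloured purple for LTHSC, STHSC and LMPP, red for MkE to ProE, orange for MkP, green for GM and GMP and blue for lymphoid groups. The first pair lies along a line (r = 0.95), and in the last one (r = 0.21) the red groups with Klf1 over 11 lie below the stem cell groups in Lyl1.

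Genes with the most similar profiles were sought among 13041 tested genes by the correlation of the 17 group means. Nearest to Klf1 were Tspan33, Aqp1, Ces2g, Cracd and Atp1b2 (r = 0.98 for the first 4 and 0.97 for Atp1b2). Nearest to Tal1 were the transferrin receptor family gene Tfr2 (0.98) and Selenbp1 (0.98), then Dnph1, Trip6 and Gstm5 (0.96, 0.96 and 0.94). Gfi1b was nearest to Septin8 (0.96), and Klf1 itself was among its 5 nearest, with Bex4, Icam4 and Cracd. The other members had less similar neighbours: the highest r was 0.91 for Lmo2 (Rab38), 0.91 for Ldb1 (Cbr1) and 0.90 for Lyl1 (Cep131).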

How the data were processed

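The deposited table holds intensity values on a linear scale, computed by the authors with the RMA method, as the design text states. The RNA was amplified per the labels' protocols, and the software version is not given in the sources used here. Of 45101 probe sets, 34958 had 1 gene symbol in the platform annotation, 932 had several and 9211 were not listed; symbols were updated to RefSeq through gene identifiers. Log2 was taken with no pseudocount, and the brightest probe set stood for a gene. Testing covered the 13949 genes whose highest group mean exceeded 3.889, the median log2 value, in limma 3.58.1 (R 4.3.3), with 17 group means on 47 arrays, 30 residual degrees of freedom, two-sided, with Benjamini-Hochberg adjustment within each of 20 comparisons. Many comparisons share arrays.

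The members and gene lists were chosen with earlier results of these data known. Named list genes are taken from those called in a comparison, up to 6 a list. In some comparisons larger called genes, or all called genes of a list, are left unnamed. Settings tried were other filters, probe set means, quantile normalization, median centring, a floor of 16, another spread model, blocks, fits of the compared groups alone and each array left out. Same-numbered arrays of different groups did not deviate together (median r 0.006 over 311 pairs), so the numbers were not taken as pairs. On simulated data of 13949 genes, 82, 90 and 84 of 100 genes changed by 1.5 (log2) were recovered for MkE minus LTHSC, ProE minus CFUE and CFUE minus PreCFUE. The changed genes were drawn at random, and each gene had the same normal spread in all groups. The rates therefore do not describe single members such as Klf1, whose SD differed between groups. The number of arrays limits the precision, and RMA intensities are relative within an array.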

Additional observations from a re-analysis of the deposited data

Results flagged for a closer look

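Tal1 on MkE replicate 1 stood at 9.63, apart from the other 3 MkE arrays (9.27, 9.27 and 9.32): its gap to the nearest of them was large for the range of the group. It was the 1 such value among 18 groups of 4 or 5 arrays checked over the 6 members and both sides, and chance flags about 1 in 20 groups.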

How the results depend on the processing

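Of 120 member differences 57 were called, and 38 of these passed under every setting and without each array. Groups of 2 arrays limit what the others can show. The stricter filter and the other spread model changed no member call. The class block draws its terms only from the arrays inside PreB, LMPP and ETP, the groups of mixed class. With the class of array by Xist and Eif2s3y as a block, 13 member differences turned sign, 8 of them called neither with nor without it. The other 5 were Ldb1, which went to -0.54 in CD4 minus ETP, -2.42 in GM minus LMPP, 0.17 in GMP minus GM and -1.35 in MkE minus LMPP, and Lyl1, which went to -1.09 in GM minus LMPP, and the cause was not tested. That block gave 1 called member for ProE minus CFUE, 4 for GM minus LMPP, 2 for GMP minus GM, 4 for PreB minus CLP and 0 for ETP minus CLP. A further quantile normalization gave 1 for STHSC minus LTHSC, 1 for MkP minus CFUE, 4 for PreB minus CLP and 2 for ETP minus CLP, and centring or a floor of 16 gave 0 for ETP minus CLP. Only the groups compared gave 0 for STHSC minus LTHSC and 0 for IgM+SP minus PreB, where fewer arrays estimate the spread. Arrays of the shared class, a setting chosen after seeing the data, gave 4 for PreB minus CLP and 2 for ETP minus CLP. With 1 array left out the count ran from 0 to 1 for ETP minus CLP, 1 to 3 for IgM+SP minus PreB, 0 to 3 for STHSC minus LTHSC and 0 to 1 for PreCFUE minus MkE. The replicate number as a block left 3 called members for MkE minus LMPP and 2 for IgM+SP minus PreB and moved no other count, since it put Ldb1 in MkE minus LMPP (0.96) and Lmo2 in IgM+SP minus PreB (0.98) under 2-fold. Among members not called, 49 values turned sign. Of 76 called list gene differences in 6 comparisons, 55 kept their call throughout.

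Counts over all genes moved by over 1.5 times in these cases. With probe set means they were 1879 against 2828 for stem minus erythro-megakaryocytic, 557 against 950 for STHSC minus LTHSC, 1753 against 2690 for MkE minus LTHSC, 638 against 1020 for PreCFUE minus MkE, 244 against 370 for CFUE minus PreCFUE, 392 against 644 for ProE minus CFUE, 960 against 1606 for MkP minus MkE, 331 against 601 for GM minus LMPP and 1929 against 2959 for CLP minus LMPP. With the class block they were 4432 for stem minus erythro-megakaryocytic, 4821 for MkE minus LTHSC, 4259 against 1761 for MkE minus LMPP, 2290 for ProE minus CFUE, 3428 for GM minus LMPP, 2457 against 1109 for GMP minus GM and 930 against 1789 for IgM+SP minus PreB. Quantile normalization gave 394 for GM minus LMPP. Only the groups compared gave 3 for STHSC minus LTHSC, 362 for GM minus LMPP and 301 for IgM+SP minus PreB. IgM+SP minus PreB had 3545 without both PreB arrays with NK markers and 950 with arrays of the shared class. GM minus LMPP had 183 and 188 without GM replicate 1 or 2, GMP minus GM 675 without GM replicate 2, and STHSC minus LTHSC 377 without STHSC replicate 1.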
